A study of Mus musculus with 15 samples.

Results

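The ubiquitin-conjugating (E2) enzymes were examined as 34 genes of the 19452 that the array names with a single gene symbol. A gene was taken if its symbol starts with Ube2. Ube2c was left out, and where a gene had several probe sets the one with the greatest 0 min mean was taken. Of the 34, 26 had 1 probe set and 8 had several, 46 probe sets in all. A further 4 probe sets name Ube2f, Ube2j2 or Ube2l3 together with a predicted gene and were not used. The rule itself uses no measured value beyond the 0 min mean that picked 1 probe set among several, but it was set with earlier results of these data known.

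The study measured mRNA decay in proliferating C2C12 myoblasts, a mouse line of muscle precursors that can be made to differentiate into myotubes by taking away growth factors. All cells were of the LKO-1 line, which carries an empty vector and was grown in puromycin below confluence, and all had been held for 30 min in 8 µg/mL actinomycin D, which blocks RNA synthesis. Total RNA was then taken at once (0 min) and after another 10, 50, 110 and 230 min. With 3 replicates of the time course this gave 15 Affymetrix Mouse Gene 1.0 ST arrays, 1 for each time and replicate. The 0 min samples therefore already carry the drug, and a sample from before the drug is not analysed here. Nothing in the labels says whether the 3 time courses came from separate cultures, so the tests measure the spread between these samples, which may be technical.

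Ubiquitin is passed along 3 kinds of enzyme. An E1 activates it, an E2 takes it as a thioester on its active-site cysteine, and an E3 ligase brings the loaded E2 to the substrate. The E2 does much to set the type of chain that is built, and thereby whether the substrate goes to the proteasome or is altered in another way, and sister E2s carry the ubiquitin-like proteins Nedd8, Isg15 and Fat10. In muscle the E2s supply the ligases that mark myofibrillar proteins for breakdown, and Ube2b is known as an E2 that rises in wasting muscle.

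Values were deposited as ratios on a linear scale, each probe set being divided by the 5th percentile of its own array, so that 1 lies near the background of the array and no value can fall far below it. Levels of different probe sets are not comparable with each other. On the 9 arrays from 0 to 50 min the 75th percentile of the array lay between 7.10 and 9.81, and on the 6 later arrays between 2.89 and 5.46. Replicate 2 at 230 min was lowest at 2.89, followed by replicate 1 at 110 min at 3.90. By the paper's methods the same amount of total RNA was used for each of these arrays. Values are thus levels within that RNA, and neither the number of cells nor the RNA per cell can be read from them. All 8 myoblast markers (Myod1, Myf5, Des, Cdh15, Itga7, Vcam1, Chrna1 and Met) exceeded the array median in 2 or more of the 0 min replicates, as did 5 of 10 myotube markers and 5 of 12 markers of other cell types. Among the last, those above the median were Pdgfra of fibroblasts (0 min mean 4.72), Pparg of adipocytes (12.1), Cd68 of macrophages (2.90), Krt8 of epithelia (2.93) and Col2a1 of cartilage (4.56), while Adipoq and Fabp4 of adipocytes, Ptprc of leukocytes, Pecam1 and Cdh5 of endothelia, Epcam of epithelia and Thy1 had means from 1.25 to 2.42. The 5 myotube markers above the median were Acta1, Mymk, Tnnt3, Myog and Ckm. Of all 25175 probe sets, 12544 exceeded the array median in 2 or more of the 0 min replicates. The counts of 5 of 10 and 5 of 12 thus lay near the share of all probe sets. They do not show whether differentiated or other cells were present. The part of these markers in the results was not tested.

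The level of most E2 transcripts fell over the time course, with a median slope near that of the brighter probe sets of the array. The slope of the log2 level in time was fitted in limma over all 25175 probe sets with the replicate as a block. As deposited, 30 of the 34 E2 genes fell and 0 rose, also at an unadjusted p under 0.05, against 75.8% and 0.302% of all probe sets; relative to the array median 15 fell and 4 rose, against 21.4% and 40.3%, and relative to the 75th percentile of the array 2 fell and 16 rose, against 7.56% and 74.1%. These 2 scalings moved the median slope of all probe sets by 0.18 and 0.32 log2 per hr, so a fall as deposited is a fall against the dimmest probe sets of the array, and the counts after scaling are changes against its typical or its brighter transcripts. The median slope of the E2 genes was -0.25 log2 per hr as deposited. That of all probe sets was -0.14, and that of the 12588 brighter probe sets, those whose mean log2 level over all arrays lay above the median and which leave out most of those with little room to fall, was -0.25. Of these brighter probe sets 96.1% fell and 0.0159% rose. Steeper than their median were 17 of the 34 E2 genes, or 17 of the 29 that exceeded the array median in 2 or more of the 0 min replicates.

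**Figure D1:**
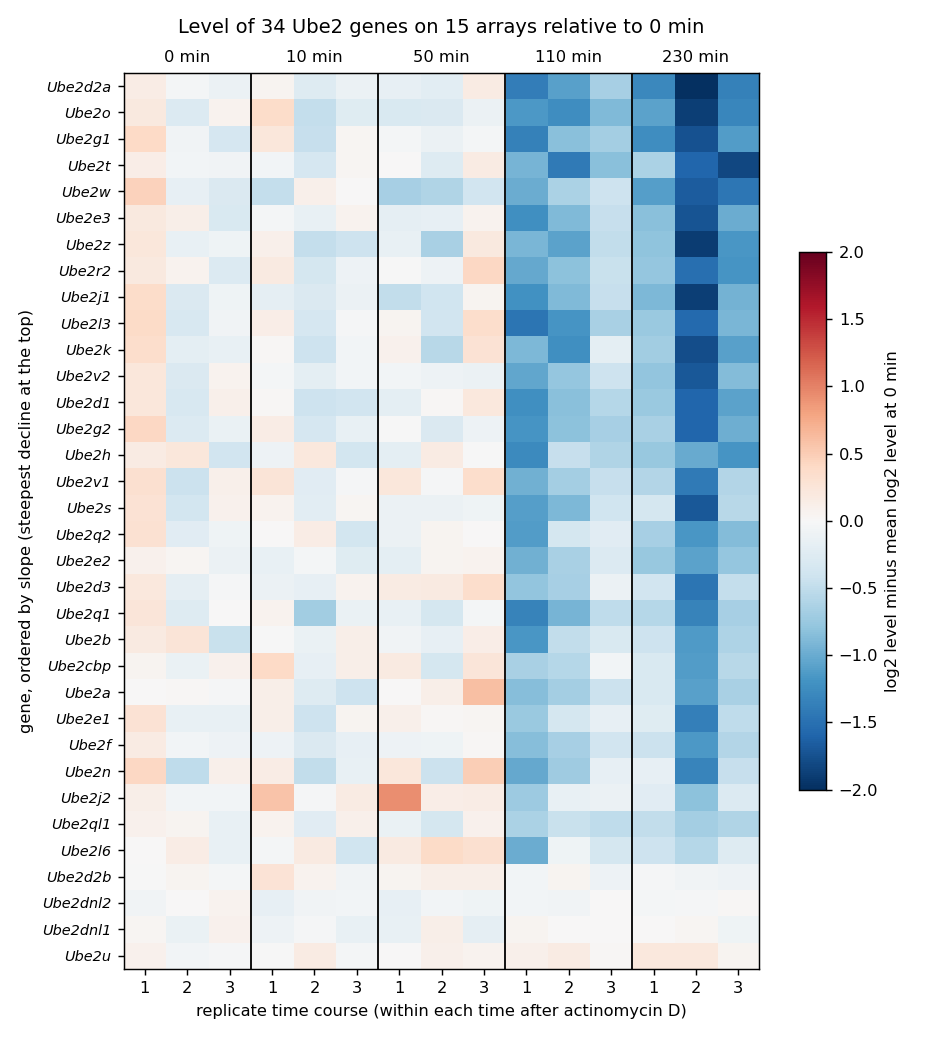
Each row is 1 of the 34 Ube2 genes, from the steepest slope at the top to the shallowest, and each column 1 of the 15 arrays, grouped by time in min and numbered by replicate; colour gives the log2 level minus the mean log2 level of the gene at 0 min. Rows turn blue between 50 and 110 min, the 230 min array of replicate 2 is the darkest column, and the 4 genes at the bottom, with values near 1, stay pale throughout.

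The decline came late. By limma with time as a factor, 0 of 34 E2 genes had fallen at 10 min against 0 min (0 at an unadjusted p under 0.05, and 0% of all probe sets) and 0 at 50 min (1 at an unadjusted p under 0.05, and 1.03% of all probe sets). At 110 min 26 had fallen, against 51.1% of all probe sets, and at 230 min 28, against 68.8%. Of the brighter probe sets 77.0% and 91.5% had fallen at these times. These contrasts share the 0 min arrays. Between neighbouring times, a comparison added after the data were seen, 0 of 34 fell from 10 to 50 min (0 at an unadjusted p under 0.05, and 0.0278% of all probe sets). From 50 to 110 min 24 of 34 fell, against 35.8% of all and 65.9% of the brighter probe sets, and 0 from 110 to 230 min (3 at an unadjusted p under 0.05), against 0.0119%. The median change of the E2 genes from 50 to 110 min was -0.73 on the log2 scale and that of the brighter probe sets -0.60; at 50 min against 0 min the medians were -0.032 and -0.11. These counts moved with those of the whole table when a replicate was left out. Without replicate 1 the count at 110 min against 0 min went from 26 to 8, when 23.6% of all probe sets had fallen, and that from 50 to 110 min went from 24 to 13, against 19.1%. That from 110 to 230 min then went from 0 to 15, against 18.4%. The median change of the E2 genes was -0.53 in either interval, so the lack of a later fall depended on replicate 1. Without replicate 3 the count from 50 to 110 min went to 2, against 3.73%, while the median change of the E2 genes was -0.83.

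The arrays told the same order without a test. All 3 arrays at 110 min lay below all 3 at 50 min for 25 of the 34 genes, which held for 43.9% of all and 70.8% of the brighter probe sets, and all 3 at 230 min lay below all 3 at 0 min for 27, against 71.7% and 84.0%. All 3 at 110 min lay below all 3 at 0 min for 24, against 14316 of the 25175 probe sets and 72.3% of the brighter ones. Each of these orders, where given for a gene below, was thus that of most brighter probe sets. How many probe sets had their arrays at 110 and 230 min below every earlier array was not counted. That order, where given, is a description of the gene alone. The 7 genes whose 0 and 230 min arrays overlapped were Ube2b, Ube2n and Ube2s, and Ube2d2b, Ube2dnl1, Ube2dnl2 and Ube2u. The last 4, a copy of Ube2d2a, a pair of Ube2d-like genes of the X chromosome and a little-studied E2, held values between 0.88 and 1.30 on every array. They did not fall at the threshold, and values at background leave no room for a fall to be seen. Ube2ql1, with a mean of 2.14 at 0 min, was the other gene that did not exceed the array median in 2 of the 0 min replicates, which 29 of 34 did. Ube2ql1 fell all the same, with a slope of -0.17 (SE 0.032, limma adjusted p = 0.00032).

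**Figure D2:**
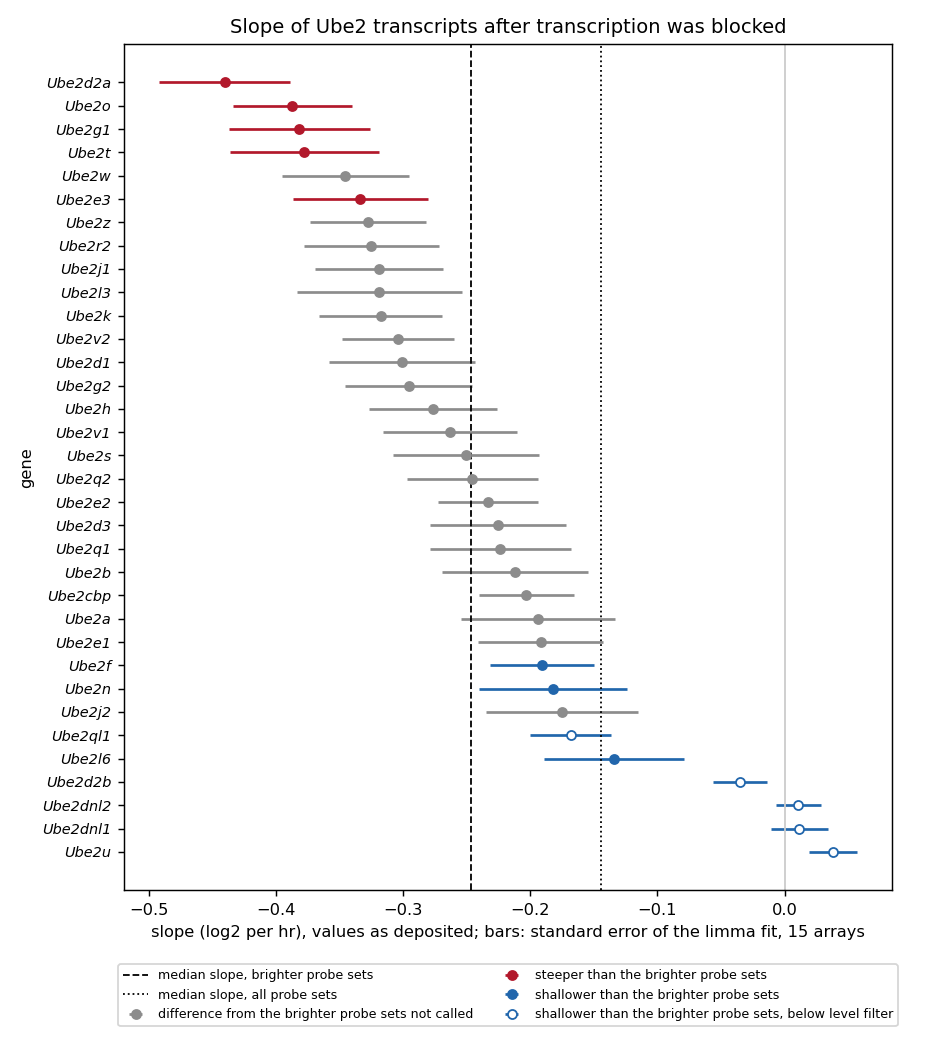
Points give the slope of each Ube2 gene in log2 per hr on values as deposited, bars the standard error of the limma fit over 15 arrays, the dashed line the median of the brighter probe sets (-0.25) and the dotted line the median of all probe sets (-0.14). Red and blue mark genes steeper and shallower than the brighter probe sets at an adjusted p under 0.05, and open symbols the genes below the level filter; slopes run from -0.44 for Ube2d2a to 0.038 for Ube2u.

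Within the family the slopes spread over a wide range. To ask which genes departed from these brighter transcripts, each array was centred on the median deviation of the brighter probe sets and the trend refitted, a comparison added after the data were seen. Of the 34 genes, 5 were steeper than the brighter probe sets (Ube2d2a, Ube2o, Ube2g1, Ube2t and Ube2e3), against 12.6% of all probe sets and 25.1% of the brighter probe sets themselves. Shallower were 8, namely Ube2l6, Ube2n, Ube2f, Ube2ql1 and the 4 genes at background, against 59.1% and 23.1%. Ube2ql1 and these 4 genes lie below the level filter. In a fit of the 12544 probe sets above it, 5 of 29 E2 genes were steeper and 3 shallower, against 24.8% and 22.8% of those probe sets. With counts this small the E2 genes were not shown to differ from the brighter probe sets. Ube2d2a and Ube2o kept their calls in all 12 alternatives tried. The calls for Ube2g1, Ube2t, Ube2e3, Ube2l6, Ube2f and Ube2n were each lost in at least 1, that for Ube2n in every setting that left out a replicate.

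Steepest of all was a member of the UBE2D family, the E2s that work with a great many RING ligases and place the first ubiquitins of a chain. Ube2d2a stood at 36.6, 32.2 and 30.3 at 0 min, 34.4, 27.5 and 30.5 at 10 min, 29.4, 28.3 and 36.8 at 50 min, 12.6, 15.5 and 20.7 at 110 min and 13.5, 7.44 and 12.8 at 230 min in replicates 1, 2 and 3. Every array at 110 and 230 min lay below every earlier one. At 230 min 34.1% ± 9.93 of the 0 min level remained (SD over 3 time courses), and the slope was -0.44 (SE 0.052, limma adjusted p = 6.5e-06), or -0.18 (SE 0.028, limma adjusted p = 2.3e-05) against the brighter probe sets. The second probe set of the gene gave a slope of -0.43.

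Ube2d1, its close paralogue, stood at 23.8, 16.3 and 21.95 at 0 min, 20.8, 15.2 and 15.6 at 10 min, 17.8, 20.7 and 23.6 at 50 min, 8.76, 11.4 and 13.7 at 110 min and 12.1, 6.80 and 9.77 at 230 min. Here too all arrays at 110 and 230 min were below all earlier ones, and 45.8% ± 4.73 remained, with a slope of -0.30 (SE 0.057, limma adjusted p = 0.00036). Ube2d3 had the shallowest slope of the 3. Its values were 123, 93.8 and 105 at 0 min, 98.95, 95.6 and 112 at 10 min, 119.7, 121 and 136 at 50 min, 61.6, 67.3 and 98.1 at 110 min and 81.5, 38.9 and 77.2 at 230 min, so that the level at 50 min was above that at 0 min in 2 of 3 time courses and the 110 min array of replicate 3 still lay above the lowest 0 min array. At 230 min 60.3% ± 16.7 remained, and the slope was -0.23 (SE 0.054, limma adjusted p = 0.0019). The other probe sets of Ube2d3 gave slopes of -0.24 and -0.28.

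Since both genes of a pair are read on the same array, their log2 ratio is free of any factor common to the array. The slopes of 14 pairs of paralogues or partners in 1 enzyme were compared in this way by a two-sided exact permutation test, in which the times were permuted within each time course (1728000 arrangements) and p-values adjusted over the 14 pairs. The pairs were set by family or enzyme, with earlier results of these data known. In 8 pairs the slopes differed. On the probe sets taken, the largest difference in size lay within the UBE2D family, where Ube2d2a minus Ube2d3 was -0.22 log2 per hr (95% interval -0.27 to -0.16, exact permutation adjusted p = 6.5e-05), with -0.25 to -0.18 in the 3 time courses. It stayed called in all 8 alternatives. These included the mean over all probe sets of each gene, but none used the steeper Ube2d3 probe set at -0.28 alone. Ube2d1 minus Ube2d2a was 0.14 log2 per hr (95% interval 0.072 to 0.21, exact permutation adjusted p = 0.0022). For Ube2d1 minus Ube2d3 no difference was called, at -0.075 log2 per hr (95% interval -0.16 to 0.0061, exact permutation adjusted p = 0.09), with -0.13 to 0.016 in the 3 time courses, and the interval still admits a clearly steeper Ube2d1.

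**Figure D3:**
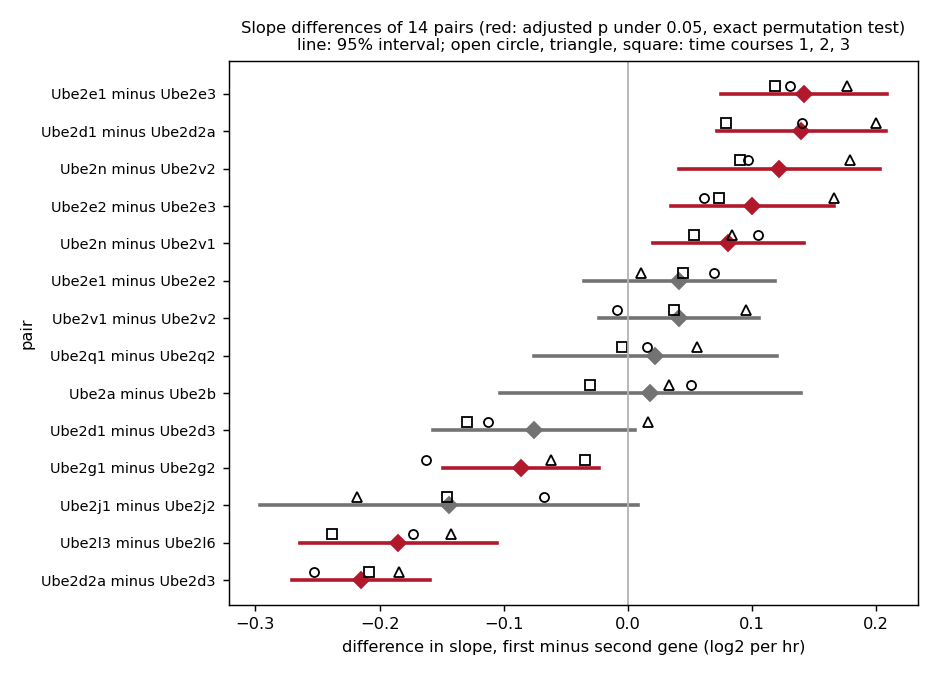
For each of 14 pairs the diamond gives the slope of the first gene minus that of the second in log2 per hr, the line its 95% interval over 15 arrays, and the open circle, triangle and square the difference in time courses 1, 2 and 3. Red pairs passed an adjusted p of 0.05 in the exact permutation test; in all 8 of them the 3 time courses fell on the same side of 0, with differences from -0.22 for Ube2d2a minus Ube2d3 to 0.14 for Ube2e1 minus Ube2e3.

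The UBE2E enzymes carry an N-terminal extension ahead of a UBE2D-like core and tend to add single ubiquitins. Ube2e3 stood at 10.1, 9.54 and 7.14 at 0 min, 8.58, 7.99 and 9.23 at 10 min, 7.80, 7.89 and 9.22 at 50 min, 3.76, 4.81 and 6.39 at 110 min and 4.94, 2.67 and 4.43 at 230 min. The 110 min array of replicate 3 came close to the lowest array at 0 min, and all others at 110 and 230 min were well below it. Of the 0 min level 46.3% ± 17.2 remained at 230 min, and the slope was -0.33 (SE 0.053, limma adjusted p = 8.3e-05). Ube2e1 was among the 5 shallowest genes above the level filter. It stood at 19.02, 13.98 and 14 at 0 min, 16.7, 11.6 and 16.1 at 10 min, 16.7, 15.7 and 15.9 at 50 min, 9.29, 12.2 and 13.8 at 110 min and 13.2, 6.03 and 10.9 at 230 min, with 63.3% ± 17.95 remaining and a slope of -0.19 (SE 0.049, limma adjusted p = 0.003). Its arrays at 110 min ran from 9.29 to 13.8, all below those at 0 min but the highest by very little.

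Ube2e2 lay between them. Its values were 8.05, 7.80 and 7.01 at 0 min, 6.89, 7.40 and 6.44 at 10 min, 6.63, 7.89 and 8.0 at 50 min, 3.91, 4.86 and 6.26 at 110 min and 4.49, 3.64 and 4.43 at 230 min, its arrays at 110 and at 230 min were all below those at 0 min, and its slope was -0.23 (SE 0.04, limma adjusted p = 0.00014). Ube2e1 minus Ube2e3 was 0.14 log2 per hr (95% interval 0.075 to 0.21, exact permutation adjusted p = 0.0016) and Ube2e2 minus Ube2e3 was 0.10 log2 per hr (95% interval 0.035 to 0.17, exact permutation adjusted p = 0.02). Ube2e1 minus Ube2e2 was 0.042 log2 per hr (95% interval -0.035 to 0.12, exact permutation adjusted p = 0.3), so a difference between this pair was not shown. Without replicate 2 the second of these differences was no longer called (adjusted p = 0.20), nor was that of Ube2d1 and Ube2d2a (0.071).

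Ube2w, which attaches ubiquitin to the amino terminus of its substrates, was among the 5 steepest. It stood at 8.95, 5.80 and 5.36 at 0 min, 4.70, 7.0 and 6.56 at 10 min, 4.10, 4.32 and 4.98 at 50 min, 3.29, 4.22 and 4.91 at 110 min and 3.05, 2.07 and 2.40 at 230 min. Its arrays at 50 min were all below those at 0 min and its arrays at 230 min all below those at 110 min. Each order was found for 1 gene of the 34, against 13.1% and 10.0% of all probe sets, so neither is more than the background gives. The change from 0 to 50 min was not called (-0.55 on the log2 scale, limma adjusted p = 0.45). That from 50 to 110 min was -0.12 on the log2 scale (SE 0.23, limma adjusted p = 0.7), and from 110 to 230 min it was -0.72 (SE 0.23, limma adjusted p = 0.24). Its overall slope was -0.35 (SE 0.05, limma adjusted p = 3.8e-05). With Ube2d2b, 7 of the 8 genes of these UBE2D, UBE2E and UBE2W enzymes fell as deposited (75.8% of all and 96.1% of the brighter probe sets); relative to the array median 4 fell and 1 rose (21.4% and 40.3% of all probe sets), and relative to the 75th percentile of the array 1 fell and 4 rose (7.56% and 74.1%).

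**Figure D4:**
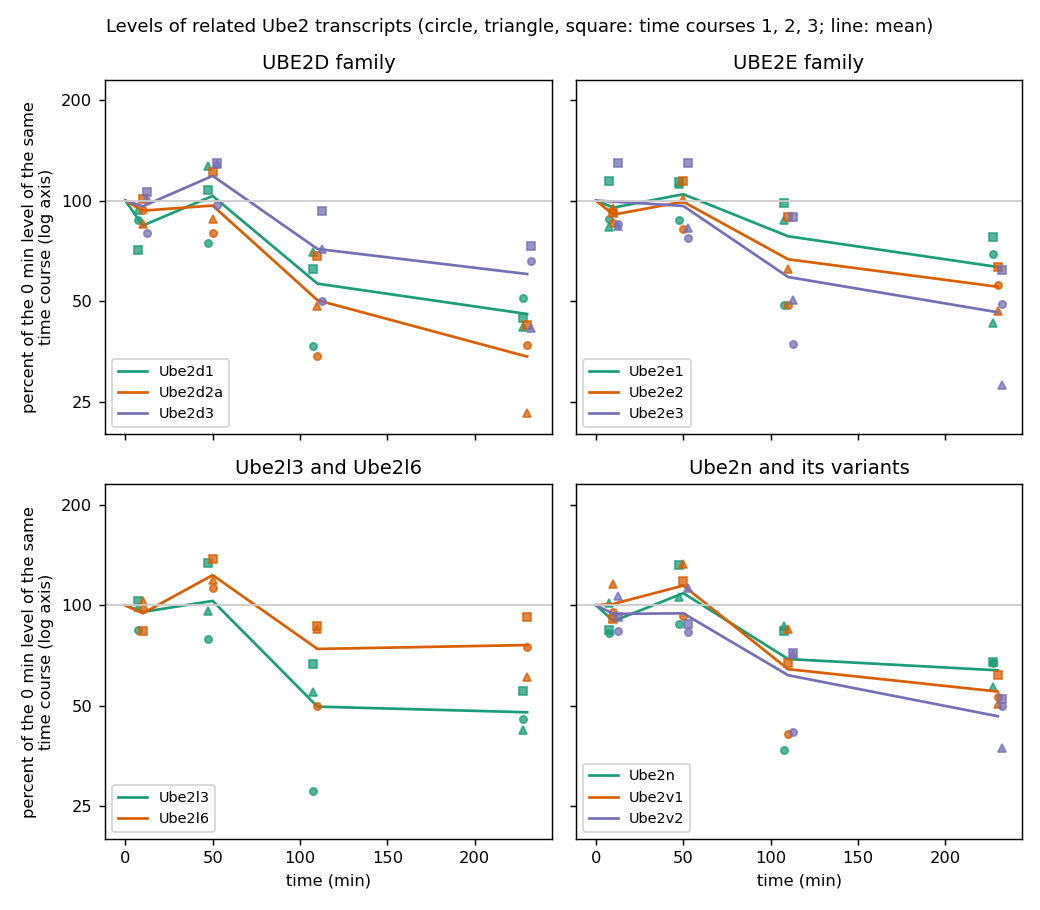
Each panel plots, for 1 group of related genes, the level as a percent of the 0 min level of the same time course (log axis) against time in min, with symbols for the 3 time courses and a line through their means. At 230 min the means were 34.1% for Ube2d2a and 60.3% for Ube2d3, 46.3% for Ube2e3 and 63.3% for Ube2e1, and 47.8% for Ube2l3 and 76.01% for Ube2l6.

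Among the E2s that extend chains through Lys48 or Lys11 of ubiquitin and so send proteins to the proteasome (Ube2g1, Ube2g2, Ube2k, Ube2r2, Ube2s and Ube2h), 6 of 6 fell as deposited (75.8% of all and 96.1% of the brighter probe sets); relative to the array median 5 fell and 0 rose (21.4% and 40.3% of all probe sets), and relative to the 75th percentile of the array 0 fell and 0 rose (7.56% and 74.1%). Their median slope was -0.31. The steepest was Ube2g1, which works with cullin-RING ligases. It stood at 9.37, 6.78 and 5.65 at 0 min, 8.32, 5.15 and 7.29 at 10 min, 6.95, 6.58 and 6.93 at 50 min, 2.79, 4.0 and 4.46 at 110 min and 3.0, 2.13 and 3.29 at 230 min. The arrays at 0 min spread widely, from 5.65 to 9.37, yet all arrays at 110 and 230 min were lower. At 230 min 40.6% ± 15.3 remained, and the slope was -0.38 (SE 0.056, limma adjusted p = 3.8e-05), or -0.12 (SE 0.034, limma adjusted p = 0.0026) against the brighter probe sets; without replicate 1 the latter was not called (adjusted p = 0.089).

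Ube2g2, the paralogue that serves degradation of proteins from the endoplasmic reticulum, stood at 19.8, 12.3 and 13.6 at 0 min, 16.6, 11.7 and 13.4 at 10 min, 14.8, 12.1 and 13.8 at 50 min, 6.56, 8.39 and 9.40 at 110 min and 9.44, 4.95 and 7.57 at 230 min. All its arrays at 110 and 230 min, too, were below those at 0 min. With 47.97% ± 7.73 remaining and a slope of -0.30 (SE 0.05, limma adjusted p = 0.00014) it was the shallower of the pair, and Ube2g1 minus Ube2g2 was -0.086 log2 per hr (95% interval -0.15 to -0.023, exact permutation adjusted p = 0.026). That difference was called in 1 of the 3 settings that left out a replicate, over which the adjusted p ran from 0.028 to 0.3.

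The other 4 genes of the group had slopes from -0.33 for Ube2r2, the paralogue of Cdc34 that works with SCF ligases, and -0.32 for Ube2k, a builder of Lys48 chains, to -0.28 for Ube2h, the E2 of the CTLH ligase, and -0.25 for Ube2s, which extends Lys11 chains on the anaphase-promoting complex. For Ube2s, which is used in mitosis together with Ube2c, the 0 min arrays ran from 52.5 to 83.4 and the 230 min arrays from 20.9 to 53.5. These overlapped, since replicate 1 at 230 min lay above replicate 2 at 0 min.

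Ube2n is the E2 of Lys63 chains, which serve signalling and DNA repair, and it works only with an inactive E2 variant, Ube2v1 or Ube2v2, at its side. All 3 genes fell as deposited (75.8% of all and 96.1% of the brighter probe sets); relative to the array median 1 fell and 0 rose (21.4% and 40.3% of all probe sets), and relative to the 75th percentile of the array 0 fell and 1 rose (7.56% and 74.1%). Ube2n stood at 42.1, 22.1 and 33.7 at 0 min, 34.8, 22.5 and 28.5 at 10 min, 36.9, 23.4 and 44.6 at 50 min, 15.5, 19.2 and 28.2 at 110 min and 28.2, 12.6 and 22.8 at 230 min. The replicates differed as much as the times did, with 22.1 in replicate 2 and 42.1 in replicate 1 at 0 min, and the 230 min arrays of replicates 1 and 3 overlapped the 0 min arrays. Within each time course 56.9% to 67.7% of the 0 min level remained at 230 min, and the slope was -0.18 (SE 0.058, limma adjusted p = 0.011). Without replicate 2 the slope was not called (adjusted p = 0.11). A second probe set of Ube2n gave -0.18 as well.

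The variant Ube2v1, which directs the pair to signalling through Traf6, stood at 47.4, 27.98 and 40.7 at 0 min, 45.4, 32.5 and 37.05 at 10 min, 44.05, 37.2 and 47.98 at 50 min, 19.5, 23.7 and 27.4 at 110 min and 25.3, 14.1 and 25.1 at 230 min. Its 230 min arrays were all below those at 0 min, and the slope was -0.26 (SE 0.053, limma adjusted p = 0.00053). Of its 2 other probe sets 1 gave -0.29, and the other, whose values lay near 1, gave -0.037 (limma adjusted p = 0.28). Ube2v2, the variant tied to DNA repair, stood at 14.3, 10.1 and 12.8 at 0 min, 11.97, 10.8 and 11.9 at 10 min, 11.9, 11.4 and 11.3 at 50 min, 5.97, 7.21 and 9.27 at 110 min and 7.14, 3.79 and 6.71 at 230 min. All its arrays at 110 and 230 min were below all of those at 0 min, and its slope was -0.30 (SE 0.044, limma adjusted p = 3.7e-05).

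The enzyme was thus shallower than either partner. Ube2n minus Ube2v2 was 0.12 log2 per hr (95% interval 0.041 to 0.20, exact permutation adjusted p = 0.021) and Ube2n minus Ube2v1 was 0.081 log2 per hr (95% interval 0.02 to 0.14, exact permutation adjusted p = 0.029). Neither was firm, since the first was called in 1 of 3 settings that left out a replicate and the second in 0, with adjusted p from 0.028 to 0.17 and from 0.057 to 0.16, and with the mean over all probe sets of Ube2v1 the second had an adjusted p of 0.73. Ube2v1 minus Ube2v2 was 0.041 log2 per hr (95% interval -0.023 to 0.11, exact permutation adjusted p = 0.24), with no difference called, but with the mean over all probe sets of each gene it was 0.10 (adjusted p = 0.0093) and with 1 subtracted from the ratios 0.078 (adjusted p = 0.044), both called.

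Ube2l3, which hands ubiquitin to HECT and RBR ligases such as Ube3a and parkin, and Ube2l6, an interferon-induced relative that carries Isg15, formed the pair with the second largest difference in size. Ube2l3 stood at 60.2, 36.98 and 44.2 at 0 min, 50.8, 36.6 and 45.6 at 10 min, 47.7, 35.5 and 59.2 at 50 min, 16.7, 20.3 and 29.4 at 110 min and 27.5, 15.7 and 24.5 at 230 min. The means at 110 and 230 min were close, with 49.7% ± 19.9 and 47.8% ± 6.77 remaining, but the time courses differed. From 110 to 230 min replicate 1 went up from 27.7% to 45.7%. Replicates 2 and 3 went down, from 54.9% to 42.4% and from 66.5% to 55.4%. The slope was -0.32 (SE 0.065, limma adjusted p = 0.00059). Its 3 probe sets did not give the same slope, the others being at -0.31 and -0.22.

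Ube2l6 was the shallowest gene above the level filter. It stood at 5.50, 6.05 and 4.96 at 0 min, 5.36, 6.21 and 4.15 at 10 min, 6.20, 7.18 and 6.84 at 50 min, 2.75, 5.15 and 4.31 at 110 min and 4.12, 3.69 and 4.57 at 230 min. All arrays at 50 min were above all arrays at 0 min, an order that was not counted over all probe sets. The 110 min array of replicate 2 lay within the range at 0 min, while the 230 min arrays were all below that range by a small step. At 230 min 76.01% ± 15.6 remained. Its slope was -0.13 (SE 0.055, limma adjusted p = 0.038), which lost its call without replicate 1 and without replicate 2 (adjusted p up to 0.27), and against the brighter probe sets it was 0.12 (SE 0.033, limma adjusted p = 0.0026). Ube2l3 minus Ube2l6 was -0.18 log2 per hr (95% interval -0.26 to -0.11, exact permutation adjusted p = 0.0016), with -0.24 to -0.14 in the 3 time courses, and it stayed called in all 8 alternatives. These included the mean over all probe sets of each gene, but none used the Ube2l3 probe set at -0.22 alone.

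Of the E2s for ubiquitin-like modifiers examined (Ube2l6, Ube2f and Ube2z), 3 of 3 fell as deposited (75.8% of all and 96.1% of the brighter probe sets); relative to the array median 1 fell and 0 rose (21.4% and 40.3% of all probe sets), and relative to the 75th percentile of the array 0 fell and 2 rose (7.56% and 74.1%). Ube2f, which with Rnf7 joins Nedd8 to cullin 5, stood at 4.88, 4.20 and 4.07 at 0 min, 4.09, 3.58 and 3.88 at 10 min, 4.07, 4.11 and 4.44 at 50 min, 2.41, 2.75 and 3.34 at 110 min and 3.23, 1.97 and 2.91 at 230 min. Every array at 110 and 230 min lay under every earlier one. From 50 to 110 min the log2 change was -0.58 (limma adjusted p = 0.016), beside a median of -0.60 for the brighter probe sets. All 110 min arrays lay below all 50 min arrays for 70.8% of those probe sets. At 230 min 61.5% ± 12.9 remained, the slope was -0.19 (SE 0.041, limma adjusted p = 0.0009), and against the brighter probe sets it was 0.067 (SE 0.025, limma adjusted p = 0.023). Ube2z, which is loaded by Uba6 and carries Fat10, had a slope of -0.33, and 41.8% ± 10.7 remained.

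Both E2s that sit in the membrane of the endoplasmic reticulum and serve the degradation of misfolded proteins fell in the trend as deposited (75.8% of all and 96.1% of the brighter probe sets), of which relative to the array median 1 fell and 0 rose (21.4% and 40.3% of all probe sets), and relative to the 75th percentile of the array 0 fell and 1 rose (7.56% and 74.1%). Ube2j2 stood at 3.44, 3.04 and 3.04 at 0 min, 4.68, 3.13 and 3.56 at 10 min, 6.05, 3.47 and 3.51 at 50 min, 1.91, 2.86 and 2.91 at 110 min and 2.72, 1.80 and 2.63 at 230 min. The 50 min array of replicate 1, at 6.05, was the highest by far. At 230 min against 0 min no fall was called (log2 change -0.43, limma adjusted p = 0.1), while the slope over all times was -0.18 (SE 0.06, limma adjusted p = 0.016). Without replicate 2 the slope was not called (adjusted p = 0.12). Ube2j1 had a slope of -0.32, and Ube2j1 minus Ube2j2 was -0.14 log2 per hr (95% interval -0.30 to 0.0083, exact permutation adjusted p = 0.09). The interval admits both no difference and a difference larger than any that was called, and a difference was called in 3 of 8 alternatives (adjusted p = 0.039 with a pseudocount of 1, 0.048 without the replicate block and 0.0044 without replicate 1).

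Among E2s of chromatin and DNA repair, Ube2t, which with Fancl adds ubiquitin in the Fanconi anaemia pathway, was the steepest. It stood at 4.38, 3.87 and 3.80 at 0 min, 3.84, 3.18 and 4.12 at 10 min, 4.04, 3.37 and 4.48 at 50 min, 2.10, 1.51 and 2.24 at 110 min and 2.58, 1.34 and 1.14 at 230 min. Replicates went apart at the end, where replicate 1 held 2.58 and replicates 2 and 3 came down to 1.34 and 1.14, values near background. At 230 min 41.2% ± 15.5 remained. The slope was -0.38 (SE 0.059, limma adjusted p = 6.8e-05), and against the median of the brighter probe sets in its own time course it was 0.014, -0.093 and -0.31 in replicates 1, 2 and 3. Ube2a and Ube2b, the near-identical mouse forms of yeast Rad6 that act with Rad18 and with Rnf20 and Rnf40, had slopes of -0.19 and -0.21, and Ube2a minus Ube2b was 0.018 log2 per hr (95% interval -0.10 to 0.14, exact permutation adjusted p = 0.76). No difference was called there. As deposited all 3 fell (75.8% of all and 96.1% of the brighter probe sets), while relative to the array median 1 fell and 0 rose (21.4% and 40.3% of all probe sets), and relative to the 75th percentile of the array 0 fell and 2 rose (7.56% and 74.1%).

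Ube2o, a very large enzyme that acts as E2 and E3 in one, stood at 10.8, 7.80 and 9.88 at 0 min, 12.1, 6.78 and 7.95 at 10 min, 7.63, 7.74 and 8.70 at 50 min, 4.26, 3.97 and 5.11 at 110 min and 4.49, 2.56 and 3.83 at 230 min. All its arrays at 110 and 230 min were below all earlier ones. At 230 min 37.7% ± 4.40 remained, with the least spread between time courses among the 5 steepest genes, and the slope was -0.39 (SE 0.047, limma adjusted p = 7.9e-06), or -0.13 (SE 0.03, limma adjusted p = 0.00076) against the brighter probe sets. Of the little-studied Ube2q1 and Ube2q2 the slopes were -0.22 and -0.25, and their difference was 0.022 log2 per hr (95% interval -0.076 to 0.12, exact permutation adjusted p = 0.69). Ube2cbp, which bears its symbol as a binding protein of Ube2c and is not an E2 itself, had a slope of -0.20.

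Half-lives were fitted as A·exp(-kt) to the values of each time course, the model of the study, and called reliable where k had a two-sided p under 0.05 and the 95% profile interval was narrower than 2 half-lives in at least 2 of 3 replicates. How the study computed its intervals is not given in the sources used here, so the counts are those of the profile interval and are not the study's. The rule held for 0 of the 34 E2 genes, against 5.84% of all probe sets and 11.1% of the brighter probe sets. By the p alone it held for 4, and with a straight line through the log2 values for 3. Neither of these variants was counted over all probe sets, so these counts have no share beside them. Of the 102 single fits of the E2 genes, 67 had no finite upper limit. The 10 single fits that passed were those of Ube2cbp, Ube2d2a, Ube2e3, Ube2g2, Ube2h, Ube2j1, Ube2k and Ube2z in replicate 2 and of Ube2s and Ube2v2 in replicate 3. Over the 29 genes above the level filter, the mean half-life over 3 time courses ran from 2.36 ± 0.451 hr for Ube2o and 2.38 ± 0.750 hr for Ube2d2a, through a median of 3.67 hr, to 12.6 ± 12.4 hr for Ube2l6 (SD, n = 3 time courses). With spreads of this size neighbours in the order cannot be told apart, and the half-lives are given as a description.

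The enzymes before and after the E2s were counted in the same fit. Of 8 E1 genes measured, 7 fell as deposited (75.8% of all and 96.1% of the brighter probe sets) and 0 rose. Their median slope was -0.21, beside -0.14 for all probe sets and -0.25 for the brighter ones. Relative to the array median 2 fell and 1 rose (21.4% and 40.3% of all probe sets), and relative to the 75th percentile of the array 1 fell and 5 rose (7.56% and 74.1%). Steepest were Mocs3, which activates Urm1, at -0.42 (SE 0.058, limma adjusted p = 2.6e-05) and Nae1, a subunit of the Nedd8 E1, at -0.36 (SE 0.058, limma adjusted p = 9.9e-05). Shallowest were Uba1y, a Y-linked gene near background, at -0.035 (SE 0.039, limma adjusted p = 0.43) and Uba7, the E1 of Isg15, at -0.13 (SE 0.025, limma adjusted p = 0.00038). Of 8 E2 and E2-variant genes that bear other names, such as Cdc34 and Birc6, 8 fell (75.8% of all and 96.1% of the brighter probe sets), with a median of -0.28; relative to the array median 4 fell and 0 rose (21.4% and 40.3% of all probe sets), and relative to the 75th percentile of the array 0 fell and 3 rose (7.56% and 74.1%).

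The genes of ubiquitin-like modifiers that were measured (Ufm1, Nedd8, Atg12, Urm1, Sumo2, Sumo3 and Fau) fell in 7 of 7 cases as deposited (75.8% of all and 96.1% of the brighter probe sets), with slopes only from -0.24 to -0.16; relative to the array median 0 fell and 0 rose (21.4% and 40.3% of all probe sets), and relative to the 75th percentile of the array 0 fell and 7 rose (7.56% and 74.1%). The E3 ligases and cofactors that pair with these E2s spread more widely. Of 28 measured, 28 fell as deposited (75.8% of all and 96.1% of the brighter probe sets), all of them genes above the level filter, with a median of -0.30; relative to the array median 15 fell and 0 rose (21.4% and 40.3% of all probe sets), and relative to the 75th percentile of the array 7 fell and 11 rose (7.56% and 74.1%). Against the brighter probe sets 10 were steeper and 1 was shallower, where 12.6% and 59.1% of all and 25.1% and 23.1% of the brighter probe sets were. Rnf4, which recognises Sumo chains, had a slope of -0.57 (SE 0.057, limma adjusted p = 2.0e-06) and Traf6, which works with Ube2n and Ube2v1, of -0.55 (SE 0.044, limma adjusted p = 6.6e-07). At the other end were Stub1, a chaperone-bound ligase, at -0.17 (SE 0.056, limma adjusted p = 0.016) and Dcun1d1, which helps load cullins with Nedd8, at -0.19 (SE 0.042, limma adjusted p = 0.00097).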

How the data were processed

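Total RNA of 15 samples was measured on Affymetrix Mouse Gene 1.0 ST arrays. The authors summarised each probe set and divided it by the 5th percentile of its array, and the deposited values are these linear ratios, without detection p-values; the summary method is not given in the sources used here. Each array had 1 at its 5th percentile, and no 2 arrays shared more than 3.82% of their values. Precision is limited by the number of arrays. Gene symbols were those of the platform annotation, and all 34 genes were matched by gene number to mouse genes of assembly GRCm38.p6.

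Log2 ratios, with no pseudocount and no filter on level, were fitted in limma (version 3.58.1, R 4.3.3), once by a slope in time and once with time as a factor, both with the replicate as a block, since the study fitted each time course by itself. P-values were adjusted by Benjamini-Hochberg over all 25175 probe sets at 0.05. Half-lives, exact permutation tests and figures used Python 3.11.15 with numpy 2.4.6, scipy 1.17.1, pandas 2.3.3 and matplotlib 3.10.9. The level filter kept probe sets that exceeded the array median in 2 or more of the 0 min replicates. Scripts were checked on simulated data. Values in every array are given for the 5 steepest and 5 shallowest genes above the level filter, for any gene with a reliable half-life and for both genes of each pair that passed, and for other lists the 2 steepest and 2 shallowest genes of the E1 and E3 lists are named. Alternatives covered scaling, level filter, pseudocount, block, replicates and times left out, prior variance, choice of probe set, half-life model and, added after the data were seen, subtraction of 1, neighbouring times and the brighter probe sets. The E2 genes, lists and pairs were chosen with earlier results of these data known. The positions of probe sets were not used here, and reads across near-identical copies of a gene (Ube2d2a and Ube2d2b, Ube2a and Ube2b, processed copies) were not tested.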

Additional observations from a re-analysis of the deposited data

How the results depend on the processing

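Scaling of the arrays changed the results most. With arrays divided by their median, the E2 genes counted as fallen were 15 in the trend, 4 at 110 min and 10 at 230 min against 0 min and 7 from 50 to 110 min (21.4%, 11.6%, 16.9% and 7.0% of all probe sets), 4 rose in the trend, and the slopes had a median of -0.067 log2 per hr. With the 75th percentile the same counts were 2, 0, 1 and 1 (7.56%, 4.83%, 6.94% and 2.29% of all probe sets), 16 rose, and the median slope was 0.069. Of 18 genes with values in every array, the slope turned upward under the median for Ube2j2 (0.0060) and Ube2l6 (0.047), and under the 75th percentile for Ube2d1 (0.017), Ube2d3 (0.092), Ube2e1 (0.13), Ube2e2 (0.084), Ube2f (0.13), Ube2g2 (0.022), Ube2j2 (0.14), Ube2l6 (0.18), Ube2n (0.13), Ube2v1 (0.054) and Ube2v2 (0.013). Outside the scalings 174 of 180 alternatives for these slopes kept the call.

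Leaving out 1 replicate, or the 2 lowest arrays together, moved the E2 genes fallen at 110 min against 0 min between 8 and 21. The share of all probe sets then ran from 23.6% to 41.0%. E2 genes fallen from 50 to 110 min ran between 2 and 19, and the share of all probe sets from 3.73% to 28.9%. Pairs with different slopes numbered between 3 (without replicate 2) and 7, with 5 without the 2 lowest arrays. Without the 230 min arrays 3 genes were steeper and 5 shallower than the brighter probe sets, against 8.58% and 45.1% of all probe sets. The median slope was then -0.37, and its difference from all probe sets, -0.10 in the full data, was -0.16. That difference was -0.028 after the level filter and -0.0017 against the brighter probe sets. Steeper genes numbered 9 with a pseudocount of 1 and 8 with a prior variance that follows intensity, against 12.1% and 13.3% of all probe sets. Under that prior variance 1 gene (Ube2u, at background) rose, against 1.07%. Shallower genes numbered 3 after the level filter, which removes 5 genes, against 22.8% of the probe sets that pass it. With 1 subtracted from the ratios 14 genes fell from 50 to 110 min, against 19.1% of all probe sets. Reliable half-lives numbered 3 with a straight line through the log2 values and 4 by the p alone, neither counted over all probe sets. Except for the level filter, which tests fewer genes, the cause was not tested. Of 151 alternatives for counts and medians, 121 left a count within 1.5 times its value or a median within its SD over the time courses.

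Arrays with the same replicate number were more alike than others, though not in every pair. Deviations from the time means correlated above 0.1 in 18 of the 30 pairs of same-numbered arrays (median 0.227, lowest -0.272) and in 11 of 60 other pairs (median -0.129). On average 12 of 15 arrays correlated best with those of their own number. Without the replicate block 30 genes fell in the trend, 22 at 110 min, 27 at 230 min and 20 from 50 to 110 min. The shares of all probe sets were 75.7%, 47.2%, 67.5% and 27.9%. In that setting 5 genes were steeper and 7 shallower than the brighter probe sets (11.5% and 56.7% of all probe sets), and 9 pairs differed. The 3 arrays per time limit the precision, and values near 1 have no room to fall.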
